A study of Mus musculus with 3 samples.

Results

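The loci described here were 53 genes of Wnt signalling, listed by name and role: 17 ligands, 15 receptors, 9 secreted inhibitors, 4 R-spondins and 8 intracellular parts, out of 21728 protein-coding genes on the autosomes and X. All 53 had peaks in every library, as had 15852 autosomal protein-coding genes in all. Chromatin accessibility had been profiled by single-nucleus ATAC-seq, in which a transposase cuts open chromatin and the cut sites are counted per peak and nucleus. The material was tdTomato+ mesenchymal progenitors (MPs) sorted from mouse forelimbs, with 1 library at each of 3 stages (E12.5, E14.5, E16.5). All 3 groups carried Hic1CreERT2/CreERT2;Rosa26LSLtdTomato/tdTomato on C57BL/6J and came from dams over 7 weeks old, given 7.5 mg of tamoxifen in 300 uL by gavage at E10. The label therefore marks cells that had the Hic1-driven, tamoxifen-dependent Cre at about that day together with their progeny, and it is not a readout of Hic1 at collection. The sort removed cells positive for blood and endothelial surface markers, so epithelium, muscle and nerve were kept out only by the absence of tdTomato. The E16.5 library came from the elbow segment and both earlier ones from whole forelimbs, and E12.5 tissue was digested with Dispase but later tissue with Collagenase A, Pronase and DNase. Stage, library, segment and digestion cannot be told apart, and with no replicate no test was possible: the intervals below are 95% intervals for counting error only.

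The libraries held 8294, 20023 and 14048 nuclei, with 87048167, 204289151 and 413425059 cut sites, and from 151 to 401 barcodes were shared between a pair of libraries. Accessibility of a locus is given as CPM, its counts per 1000000 counts in autosomal regions called in all 3 libraries, summed over the gene body and 2000 bp upstream. Loci that mark cells outside the sorted lineage were read over all autosomal peaks of each library and scaled to the total of those peaks, so a 0 below means that no peak was called there. On that scale the summed CPM of 4 myogenic loci (Myf5, Myod1, Myog, Pax7) was 87.2, 40.7 and 46.8 from E12.5 to E16.5, with Myf5 at 0 at E14.5. For 4 epithelial loci (Cdh1, Epcam, Krt14, Krt5) it was 88.6, 50.7 and 67.0, with Krt5 at 0 at E14.5, and for 4 endothelial loci (Cdh5, Kdr, Pecam1, Tie1) 97.1, 82.0 and 117. The 3 autosomal blood loci summed to 57.1, 39.1 and 39.1, with Itgam at 0 at E14.5, and the 3 autosomal Schwann cell loci to 49.1, 55.05 and 56.3. Their part in the stage differences below was not tested.

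Wnt ligands are secreted glycoproteins that bind Frizzled receptors, either with the co-receptors Lrp5 and Lrp6, which stabilises beta-catenin and lets it act with TCF/LEF factors on target genes, or with Ror and Ryk receptors in beta-catenin-independent signalling. Dkk, Sfrp, Frzb and Wif1 proteins restrain the signal outside the cell, R-spondins strengthen it by keeping Frizzled receptors at the surface, and Axin and Nkd proteins limit it inside the cell. In the limb bud the pathway takes part in outgrowth, in dorsal and ventral identity, in dermis formation and in keeping mesenchyme from becoming cartilage.

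Single peaks inside introns carried the largest stage and subset differences, so 240 bp of 6 of them are given, read on the plus strand of GRCm38 (mm10), the build of the files. Each lies at the centre of the stretch called in every library, while counts of a peak are over each library's own call, which can be wider. They were chosen after their values had been seen. The first pair lie in introns of Dkk3 and went in opposite directions with stage, the next pair lie in Axin2 and Nkd2, both negative feedback genes, and the last pair stood out in nuclei with accessible cartilage loci. Capitals mark the letters CTTTGAT or CTTTGAA, on either strand, which belong to the core that TCF/LEF factors bind, and a sequence all in lower case holds none in this window.
Dkk3 intron, chr7:112144958-112145197: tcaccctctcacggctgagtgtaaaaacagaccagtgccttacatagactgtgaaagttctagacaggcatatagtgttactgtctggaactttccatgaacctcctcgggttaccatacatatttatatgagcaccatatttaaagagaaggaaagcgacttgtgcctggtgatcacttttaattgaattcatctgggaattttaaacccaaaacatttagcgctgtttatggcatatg
Dkk3 intron, chr7:112154874-112155113: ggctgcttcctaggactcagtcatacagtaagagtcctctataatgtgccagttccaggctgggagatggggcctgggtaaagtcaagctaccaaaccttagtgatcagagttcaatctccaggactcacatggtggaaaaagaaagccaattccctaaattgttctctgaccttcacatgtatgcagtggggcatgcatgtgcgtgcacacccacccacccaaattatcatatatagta
Axin2 intron, chr11:108936049-108936288: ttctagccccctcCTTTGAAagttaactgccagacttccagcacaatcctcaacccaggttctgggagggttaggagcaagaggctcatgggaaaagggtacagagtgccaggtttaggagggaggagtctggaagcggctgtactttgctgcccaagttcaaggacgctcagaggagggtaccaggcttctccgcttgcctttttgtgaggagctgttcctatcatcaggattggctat
Nkd2 intron, chr13:73833758-73833997: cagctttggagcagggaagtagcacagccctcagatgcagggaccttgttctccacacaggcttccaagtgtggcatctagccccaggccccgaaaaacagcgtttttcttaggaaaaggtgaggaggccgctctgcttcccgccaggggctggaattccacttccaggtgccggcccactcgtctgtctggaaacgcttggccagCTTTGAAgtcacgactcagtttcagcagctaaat
Lef1 intron, chr3:131178868-131179107: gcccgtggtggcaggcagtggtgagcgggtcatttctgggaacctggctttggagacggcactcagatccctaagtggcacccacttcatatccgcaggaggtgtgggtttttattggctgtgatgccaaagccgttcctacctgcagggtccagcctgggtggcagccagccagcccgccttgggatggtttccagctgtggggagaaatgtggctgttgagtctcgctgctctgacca
Ror2 intron, chr13:53167312-53167551: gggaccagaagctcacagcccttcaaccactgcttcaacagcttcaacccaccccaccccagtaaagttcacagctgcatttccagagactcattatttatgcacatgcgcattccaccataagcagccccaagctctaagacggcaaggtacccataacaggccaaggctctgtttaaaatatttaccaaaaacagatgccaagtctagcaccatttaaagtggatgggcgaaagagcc

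As whole loci, the 53 genes were little changed between E12.5 and E16.5. At E16.5, 2 of 53 were more than 1.5-fold higher, where 7.34% of all genes were, and 6 were more than 1.5-fold lower, where 8.52% were. The median log2 ratio was -0.06 over the 53 loci and 0.01 over all genes. The higher loci were Wnt10b and Nkd1, and the lower ones were Wnt8b, Wnt16, Sfrp5, Rspo2, Rspo4 and Nkd2. Peaks had been called wider in some libraries than in others, and per kilobase of called width none of the 53 passed 1.5-fold in either direction, where 3.62% and 5.33% of all genes did. Here and below, values per kilobase of called width are relative to the library's mean over its shared autosomal called width (109, 76.0 and 124 Mb in stage order). Unscaled ratios differ from these by a constant for each step, so counts past 1.5-fold hold on this relative scale only. The share that was higher lay below that of all genes and the share that was lower slightly above it before this adjustment. In such sums, fewer nuclei of a kind and less accessibility per nucleus cannot be told apart.

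The 17 ligand loci had a median log2 ratio of -0.13, with 6 above and 11 below 0. Such counts of signs by role have no share of all genes beside them and describe these loci only. Wnt10b, a ligand of canonical signalling at chr15:98770712-98778150, minus strand, had 28.7, 26.0 and 47.6 CPM in stage order, a log2 ratio of 0.73 (0.64 to 0.83) over the whole span. Its called width went from 4527 to 8244 bp, and per kilobase of called width the ratio was 0.06. Wnt8b, a ligand best known from the developing brain (chr19:44493472-44514273, plus strand), had 21.5, 9.94 and 11.7 CPM, a ratio of -0.88 (-0.998 to -0.76), and -0.54 per kilobase of called width. The 9.94 at E14.5 leaves out a peak of 9.17 CPM that was called just past the end of the locus there. At E12.5 and E16.5 the matching peak reached into the locus and was counted. Wnt16 (chr6:22288227-22298522, plus strand) had 31.3, 29.6 and 20.8 CPM, and its ratio of -0.59 lay just past the threshold of 1.5-fold, where Ror1 at 0.50 was the nearest locus inside it among the higher ones and Wnt11 at -0.46 among the lower.

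Wnt2, Wnt5a and Wnt6 were given for every stage because the study names them. Wnt2 had 41.2, 39.7 and 32.2 CPM, a ratio of -0.36 (-0.44 to -0.28) that was 0.29 in promoter peaks alone. Wnt5a, the main ligand of beta-catenin-independent signalling in the limb, had 101, 113 and 91.97 CPM, a ratio of -0.13 (-0.19 to -0.08). Wnt6 had 52.6, 66.6 and 53.5, a ratio of 0.03 (-0.05 to 0.10), so that both were highest at E14.5. The median of all genes also rose to E14.5 and fell after it. Wnt5b had 155, 179 and 163 CPM, of which 35.7% at E16.5 lay in peaks that also reach another gene, and Wnt11, another ligand with mostly beta-catenin-independent roles, had 112, 116 and 81.7. Wnt10a had 63.7, 51.6 and 79.4 CPM, a ratio of 0.32 from E12.5 to E16.5, but in promoter peaks alone the ratio was -1.10. The other 8 ligands (Wnt1, Wnt2b, Wnt3, Wnt3a, Wnt7a, Wnt7b, Wnt8a and Wnt9b) ranged from 7.70 CPM for Wnt9b at E16.5 to 49.2 for Wnt7b at E14.5. Per kilobase of locus Wnt9b was the lowest ligand at every stage, with 0.381, 0.385 and 0.315 CPM per kilobase.

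**Figure D1:**
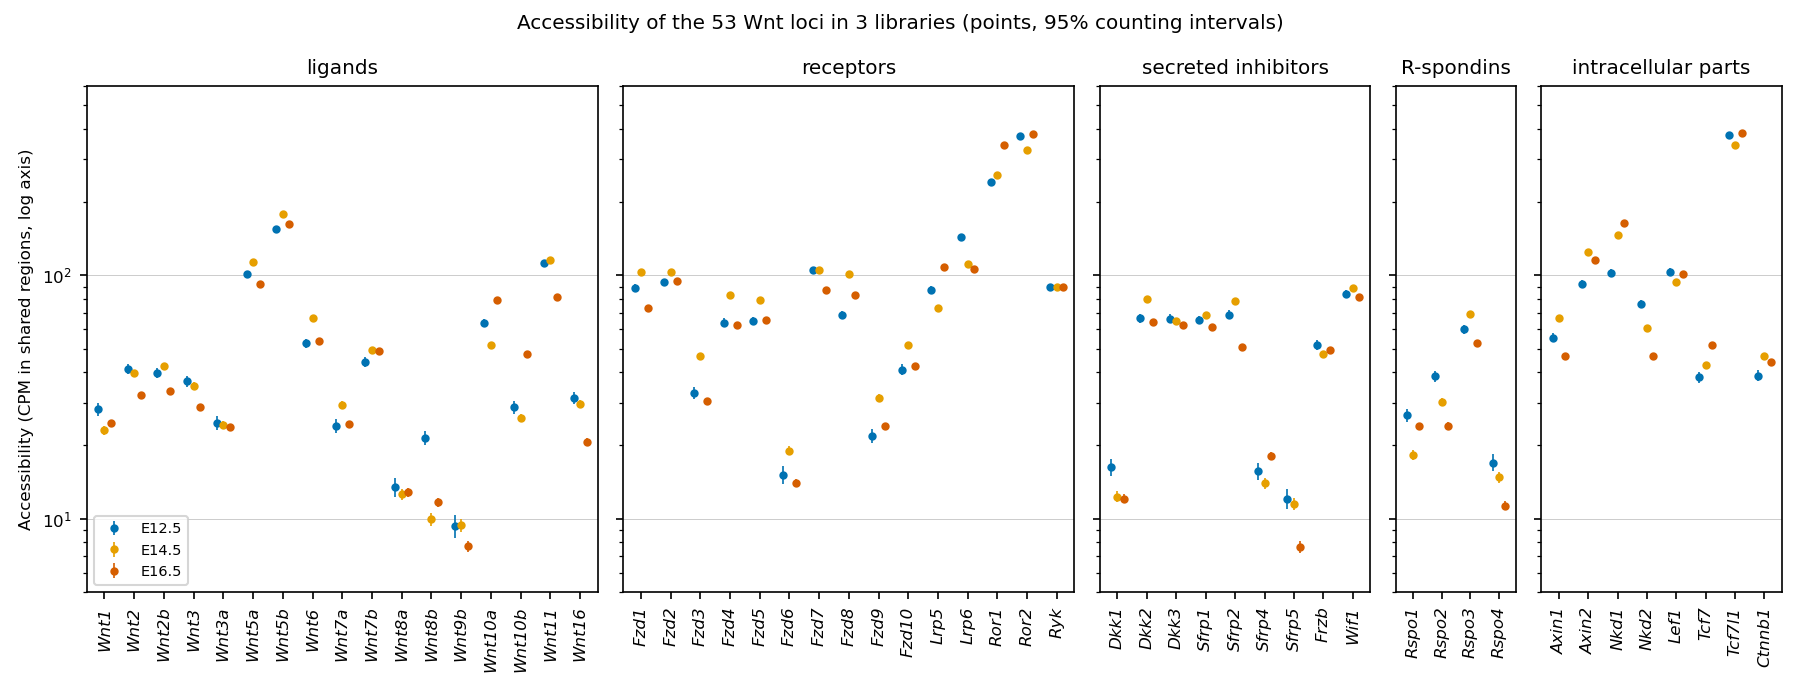
Accessibility (CPM, log axis) of the 53 loci by role, with 1 point per library and its 95% counting interval. Most loci differ little between stages: Ryk stays at 89.2, 89.5 and 89.4 CPM, while Wnt10b stands at 47.6 at E16.5 above 28.7 and 26.0, and Nkd2 goes from 76.4 to 46.5.

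None of the 15 receptor loci passed 1.5-fold between E12.5 and E16.5, and their median log2 ratio was 0.01. Ror1, a receptor for Wnt5a-type ligands, had 241, 259 and 342 CPM, the highest ratio of the receptors at 0.50 (0.47 to 0.53). Lrp6, the co-receptor of canonical signalling, had 144, 111 and 106, the lowest at -0.44 (-0.48 to -0.40). Its paralogue Lrp5 had 87.5, 73.7 and 108. The ratio of Lrp5 was 0.31 (0.25 to 0.36), opposite in sign to that of Lrp6. Ryk, a receptor of beta-catenin-independent signalling, differed least between E12.5 and E16.5, with 89.2, 89.5 and 89.4 CPM. Its promoter peak alone was highest at E14.5, with 23.4, 34.2 and 21.5 CPM. All matched promoter peaks likewise had median log2 ratios of 0.28 and then -0.31 by step. Ror2 had 374, 328 and 383. In promoter peaks alone the ratio of Lrp5 was -0.43, opposite to that of its whole locus.

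Frizzled genes encode the receptors that bind the ligand itself, and most of these loci are short. Per kilobase of locus, Fzd2, Fzd7 and Fzd1 were the highest of the 53 at E12.5. Fzd2, which the study names, had 93.8, 103 and 94.7 CPM, that is 16.6, 18.2 and 16.7 CPM per kilobase, with a log2 ratio over the whole span of 0.01 (-0.04 to 0.07). Fzd7 had 16.1, 16.1 and 13.3 CPM per kilobase, and Fzd1 14.3, 16.7 and 11.9. The order of Fzd2 and Fzd7 was within 1 CPM per kilobase at E12.5 and wider later. The lowest receptors on this scale were Fzd6, at 0.443, 0.558 and 0.410, and Fzd3, at 0.458, 0.649 and 0.424. Of the 10 Frizzled loci, 9 had a higher value at E14.5 than at E12.5, with Fzd7 level, and all 10 had a lower value at E16.5 than at E14.5, although only Fzd3 passed 1.5-fold. The median of all genes moved in the same way, by 0.15 and then -0.17. All matched promoter peaks moved further, with medians of 0.28 and then -0.31, and the matched peak of each Frizzled locus was a promoter peak. Every count at Fzd4 lay in peaks that also reach another gene.

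Of the 9 secreted inhibitors 8 had a lower value at E16.5, with a median log2 ratio of -0.09, and 1 passed 1.5-fold. Most of the 8 differed little, and this count has no share of all genes beside it, so it is not read as a group trend. Sfrp5, a decoy for Wnt ligands (chr19:42197971-42202252, minus strand), had 12.04, 11.5 and 7.64 CPM, a ratio of -0.66 (-0.81 to -0.50). Sfrp4 was the single inhibitor with a higher value, at 15.7, 13.99 and 18.1 CPM and a ratio of 0.21 (0.08 to 0.34), which became -0.18 per kilobase of called width. Sfrp2 had 68.996, 78.5 and 50.9 CPM, a log2 ratio of -0.63 for the later step. Dkk3, a divergent Dickkopf that the study names, had 66.4, 64.7 and 62.4 CPM and a ratio of -0.09 (-0.15 to -0.03). Dkk1 had 16.3, 12.3 and 12.1 CPM. Dkk2, Sfrp1, Frzb and Wif1 lay between 47.4 and 88.3 CPM at all stages, with ratios from -0.09 to -0.05.

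The 4 R-spondins all had a lower value at E16.5 than at E12.5, with a median log2 ratio of -0.39. Here too no share of all genes with a lower value is set beside the count. Rspo2 (chr15:43020794-43170826, minus strand), which is needed for limb outgrowth, had 38.4, 30.2 and 24.1 CPM, a ratio of -0.67 (-0.76 to -0.58), and Rspo4 (chr2:151842927-151874668, plus strand) had 16.996, 14.8 and 11.3, a ratio of -0.59 (-0.72 to -0.46). Both had been called over a narrower width at E16.5. Per kilobase of called width the group's median was 0.03, with Rspo2 at -0.01. Rspo1, named in the study, had 26.6, 18.3 and 24.0 CPM, a ratio of -0.15 (-0.25 to -0.05), with its lowest value at E14.5. Rspo3, also named there, had 60.0, 69.6 and 52.6, a ratio of -0.19 (-0.26 to -0.12), with its highest value at E14.5. A rise to E14.5 and a fall after it were also seen in the median of all genes.

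Among the 8 intracellular loci, Nkd1 and Nkd2, which encode related inhibitors of Dishevelled, went in opposite directions. Nkd1 (chr8:88521354-88594884, plus strand) had 103, 147 and 164 CPM, a log2 ratio of 0.68 (0.63 to 0.72) that was 0.39 per kilobase of called width and 0.11 in promoter peaks alone. Nkd2 (chr13:73818534-73847631, minus strand) had 76.4, 61.0 and 46.5, a ratio of -0.72 (-0.78 to -0.65) that was -0.46 per kilobase. Axin2, a feedback inhibitor and common readout of canonical signalling, had 92.2, 124 and 115 CPM, a ratio of 0.32 (0.27 to 0.38). Lef1, a nuclear effector, had 104, 93.8 and 101, a ratio of -0.03 (-0.08 to 0.02), and Tcf7 had 38.1, 42.7 and 52.0. Tcf7l1, a largely repressive member of that family, had 376, 342 and 384. Axin1 and Ctnnb1, which encodes beta-catenin, stayed between 38.7 and 66.7 CPM.

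By single step, E14.5 over E12.5 put 0 of 53 loci past 1.5-fold higher, where 7.41% of all genes were, and 1 lower (Wnt8b at -1.11), also beside 7.41%. Per kilobase of called width Wnt8b was at 0.44, with a called width that went from 3654 to 872 bp. Its 1 peak of matched position had 6.71 CPM at E12.5 and 9.17 at E14.5. At E14.5 this peak was called from position 44514420, just past the end of the locus, so its counts are not in the value of Wnt8b there. The -1.11 therefore compares sums over different peaks. For E16.5 over E14.5, 2 were higher (Wnt10b at 0.88 and Wnt10a at 0.62), beside 7.32%, and 3 were lower (Sfrp2 at -0.63, Fzd3 at -0.61 and Sfrp5 at -0.60), beside 5.2%. Per kilobase of called width 0 loci were higher in this step, with Wnt10b at 0.04 and Wnt10a at -0.12, and in peaks of matched position Wnt10a was at -0.23. Of the lower loci, Fzd3 and Sfrp5 were not past 1.5-fold per kilobase of called width. Relative to the median of all genes the medians of the 53 loci were 0.05 against 0.15 and -0.15 against -0.17.

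Of 40 other genes of the pathway with an autosomal value, from secretion to planar polarity, 2 were past 1.5-fold higher at E16.5, beside 7.34% of all genes, and 0 were lower, beside 8.52%, with a median of 0.00. Kremen2, a receptor for Dkk proteins, had 28.8, 14.4 and 60.7 CPM, the largest rise at a log2 ratio of 1.08 (0.99 to 1.17), or 0.39 per kilobase of called width. In promoter peaks alone its ratio was -0.77, and 78.2% of its counts at E16.5 lay in peaks that also reach another gene, against 21.2% at E12.5. Bcl9l, which encodes a cofactor of beta-catenin, had 149, 181 and 258, a ratio of 0.79 (0.75 to 0.83). It was not past 1.5-fold over the gene body alone (0.34), in promoter peaks (0.17) or per kilobase of called width (0.43). Daam2, which links Dishevelled to the cytoskeleton, had 74.7, 70.8 and 51.0, the lowest ratio of the 40 at -0.55 (-0.61 to -0.49). Porcn, on the X and so outside the 40, had 17.8, 22.1 and 39.1 CPM, a ratio of 1.14 (1.02 to 1.26) that was -0.18 per kilobase of called width.

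At some loci the whole-locus total joined peaks that differed in opposite directions. In all, 125 peaks reaching a member, from 49 of the 53 loci, matched in position in every library, with at least 50% overlap both ways. Of the 40 that lay at a promoter of any gene, 0 were past 1.5-fold higher at E16.5 and 1 was lower (Sfrp5), where 3.3% and 8.55% of all matched promoter peaks were. Of the 85 outside promoters, 25 were higher and 21 were lower, where 20.4% and 27.7% of all such peaks were. Per kilobase of called width these were 21 and 14 of 85, beside 16.4% and 17.3% of all. On both scales the higher share over this span lay above that of all such peaks and the lower share below it, slightly so per kilobase. By step this was not steady. From E12.5 to E14.5, 28.2% were higher and 22.4% lower, beside 18.1% and 24.0% of all. From E14.5 to E16.5, 10.6% were higher and 25.9% lower, beside 15.4% and 19.2%. Ror1 and Tcf7l1 held 6 and 5 of the 25 higher peaks. Among the 29 loci with such a peak, 6 had both a higher and a lower one: Ror1, Ror2, Dkk2, Dkk3, Lef1 and Tcf7l1. That is 20.7%, beside 14.5% of the 6237 genes with such a peak, or 6 of 17 with at least 2 such peaks, beside 30.9%. Per kilobase of called width this held for 2 of them, Ror2 and Dkk3, that is 6.9% beside 10.0% of all.

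**Figure D2:**
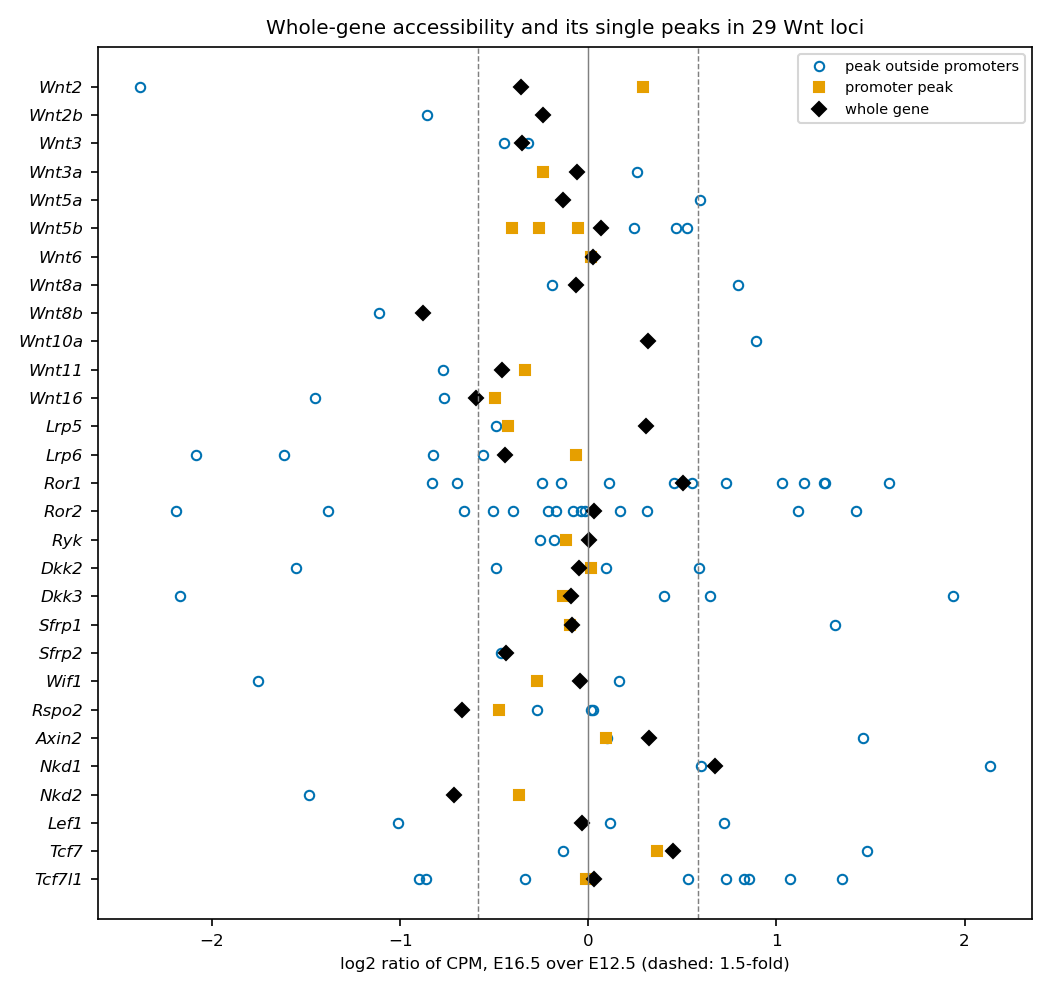
Log2 ratio of CPM, E16.5 over E12.5, for the 29 loci with a matched peak outside promoters: diamonds are whole loci, squares promoter peaks and open circles other peaks, with dashed lines at 1.5-fold. Dkk3 has a whole-locus value of -0.09 between peaks at -2.17 and 1.94, and promoter peaks stay inside the dashed lines here.

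Dkk3 gave the clearest pair. The intronic peak at the first Dkk3 sequence above, 14137 bp from the nearest transcription start, had 21.8, 7.55 and 4.84 CPM, a log2 ratio of -2.17 (-2.31 to -2.03). The one at the second sequence, 4034 bp from the start, had 3.69, 12.9 and 14.1, a ratio of 1.94 (1.69 to 2.19). Most of both differences was already present at E14.5. After each nucleus was thinned to 1074 fragments, 2.31%, 0.88% and 0.58% of nuclei had a fragment in the first and 0.34%, 1.34% and 1.48% in the second. Per kilobase of called width the ratios were -1.80 and 1.32. The whole-locus ratio of -0.09 showed neither difference.

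Other loci had a strong peak that was lower or higher at E16.5. Positions printed for matched peaks are the stretch common to all libraries, while CPM are over each library's own peak, which can be wider. The Tcf7 peak below, for example, was called from 52272035 to 52274151 at E16.5. An intronic peak of Wnt2 (chr6:18013111-18013897), 17074 bp from the start, had 17.7, 10.5 and 3.40 CPM, a ratio of -2.38 (-2.54 to -2.22), or -1.78 per kilobase of called width, while the locus as a whole was at -0.36. The Nkd2 peak whose sequence is given above had 41.7, 23.2 and 14.9 CPM and a ratio of -1.48 (-1.58 to -1.39), or -0.87 per kilobase. The locus as a whole went from 76.4 to 46.5 CPM, so most of its difference lay in this peak. In Lrp6 a pair of intronic peaks had ratios of -2.08 (16.5, 11.5 and 3.89 CPM at chr6:134504762-134505578, or -1.72 per kilobase) and -1.62 (21.05, 12.2 and 6.86 CPM at chr6:134472835-134473762, or -1.17 per kilobase). Among the higher peaks, the one in Nkd1 (chr8:88576268-88576899) had 2.30, 5.33 and 10.1 CPM, a ratio of 2.13 (1.83 to 2.45), or 1.36 per kilobase. The Axin2 peak given above had 7.07, 11.7 and 19.4, a ratio of 1.46 (1.28 to 1.64), or 0.72 per kilobase of called width, while the promoter peak of Axin2 stayed within 1.5-fold. A Tcf7 peak (chr11:52272653-52273525) had 4.47, 5.54 and 12.5, a ratio of 1.48 (1.26 to 1.71), or 1.13 per kilobase, with most of the difference after E14.5.

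**Figure D3:**
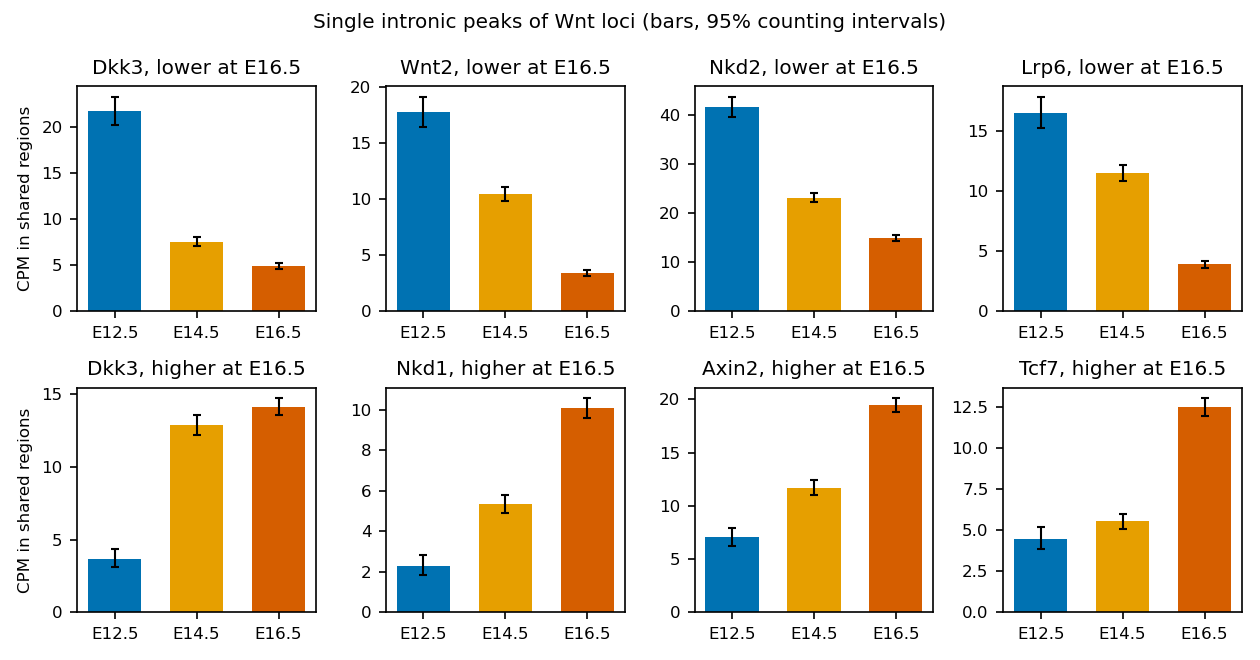
CPM of 8 single intronic peaks by stage, as bars with 95% counting intervals (linear axes from 0). The Dkk3, Wnt2, Nkd2 and Lrp6 peaks of the upper row step down at each stage, to 4.84, 3.40, 14.9 and 3.89 CPM, and the Dkk3, Nkd1, Axin2 and Tcf7 peaks of the lower row step up to 14.1, 10.1, 19.4 and 12.5.

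The Ror loci are long and carried many such peaks. Ror1 had 98 regions called in any library, of which 32 were called in all 3, 11 at E12.5 alone and 33 at E16.5 alone. Its strongest higher peaks were 1 with 2.18, 3.21 and 6.59 CPM, a ratio of 1.60 (1.15 per kilobase of called width), and 1 at 5992 bp from the start with 6.89, 14.5 and 16.5, a ratio of 1.26 (0.64 per kilobase). Ror2 had 53 regions, with peaks from -2.19 (7.61, 4.53 and 1.66 CPM, or -1.24 per kilobase) to 1.42 (4.11, 12.2 and 11.02 CPM, or 1.06 per kilobase) around a total of 0.03. Over all 53 loci 598 regions were called, 41.0% of them in all 3 libraries, against 31.8% of regions genome-wide, and 24.1% at E16.5 alone, against 27.5%. The genome-wide regions include those outside genes, so these shares do not compare Wnt loci with other genes.

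At promoters the share of nuclei with a fragment differed more between loci than between stages. After thinning to 1074 fragments, the median over the 51 loci with a promoter peak was 3.35%, 4.05% and 3.53% of nuclei in stage order, beside 3.05%, 3.92% and 3.42% for all genes. Fzd2 had 7.56%, 9.53% and 9.36%, and Wnt9b had 0.95%, 0.94% and 0.85%. In relative terms the widest stage differences were at Wnt1, with 2.77%, 0.87% and 2.50%, and Wnt10a, with 1.74%, 0.67% and 0.84%, whose lowest value was at E14.5. Promoter peaks of Wnt1, Wnt10a, Wnt10b and Sfrp2 had been called at positions that did not match between the libraries, so their shares compare stretches of different extent. At Wnt1 the log2 ratio from E12.5 to E14.5 was -1.69 in promoter peaks and -0.29 over the locus. Next came Wnt10b, with 1.97%, 1.95% and 3.92%, and Sfrp2, with 6.64%, 6.37% and 3.56%, both differing between E14.5 and E16.5. The intervals at E16.5 were 3.60% to 4.25% for Wnt10b and 3.26% to 3.88% for Sfrp2. Fzd8, with 6.22%, 9.55% and 7.92%, and Axin2, with 4.61%, 7.72% and 6.10%, were highest at E14.5, as was the median of all genes. Wnt8a and Wnt8b had no promoter peak in the shared regions. Without thinning the medians were 11.7%, 17.6% and 29.9%, in the order of the libraries' median cut sites per nucleus (6003.5, 8575 and 26694).

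To ask which nuclei carried these loci, nuclei of each library were ranked, within 10 strata of depth, by the share of their counts in peaks of a marker panel, and the top 10% were set against the rest. The chondrogenic panel held cartilage matrix genes and Sox9 (Col2a1, Acan, Matn1 among them), the dermal fibrogenic panel Twist2, En1, Crabp1, Irx1, Irx2, Lrig1 and Col7a1, the tenogenic panel genes such as Mkx, Fmod and Kera, and the fibrogenic panel genes such as Pi16, Dpt, Cd34 and Clec3b. Such a gate is a range of a score and not a cell type, and peaks reaching a Wnt locus were left out of the scores. At E16.5 each gate held 1400 nuclei, of which 32.1% to 49.0% were in another gate as well. A panel gene left out of the score was higher in the gate for 9 of 9 chondrogenic (log2 ratio 0.72 to 2.96), 7 of 7 dermal fibrogenic (0.20 to 1.05), 7 of 7 tenogenic (0.07 to 0.98) and 7 of 8 fibrogenic genes (-0.09 to 0.86). For pericyte and perineural loci only 2 of 6 and 3 of 4 genes were higher, and at E12.5 the panels' median ratios ran from -0.27 to 0.10, so those gates are not described further. The perineural median of 0.19 at E16.5 was close to those of gates kept at E14.5. In the perineural gate 0 of 53 loci passed 1.5-fold at E16.5, beside 0.855% of all genes higher and 0.66% lower. In its top 5% of nuclei 4 were higher, beside 1.62%. Counts at promoters made up 40.8% of the chondrogenic gate and 36.9% of its remaining nuclei (for the other 3 gates, 36.0% to 37.3% against 37.3% to 37.4%). The part of this in the results below was not tested. By stage, the remaining nuclei of the chondrogenic gate had 39.3%, 51.6% and 36.9% of their counts in autosomal peaks at promoters. Promoters thus held a larger share at E14.5, and the part of that in the stage values above was not tested.

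In the dermal fibrogenic gate, 4 of 53 loci were more than 1.5-fold higher, where 1.7% of all genes were, and none lower, where 2.81% were. They came from 4 roles. Lef1 had 151 CPM in the gate and 96.0 in the remaining nuclei, a log2 ratio of 0.65 (0.59 to 0.71). Rspo1, an R-spondin, had 36.2 and 22.7, a ratio of 0.67 (0.54 to 0.80). The receptor Fzd10 had 63.1 and 40.04, a ratio of 0.66 (0.56 to 0.75). The inhibitor Wif1 had 120 and 77.3, a ratio of 0.64 (0.57 to 0.71), but 0.00 in promoter peaks alone, where the other 3 loci kept ratios of 0.64 to 0.67. The loci just inside the threshold were Dkk1 at 0.57 and Sfrp5 and Ryk at 0.53. Rspo1 and Lef1 had already been named by the study for dermal fibroblasts in these same libraries, beside the panel genes Col7a1 and Irx1. Their higher values in this gate are therefore no separate support. Axin2 and Nkd2, whose transcripts the study names with Lef1 for the dermal lineage, were not past 1.5-fold.

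The other gates differed at fewer loci. In the chondrogenic gate Lrp5 was higher, with 159 CPM against 102, a log2 ratio of 0.64 (0.58 to 0.70) that was 0.01 in promoter peaks alone, and Wnt2 was lower, with 20.5 against 33.5, a ratio of -0.71 (-0.87 to -0.55). Wnt2 was in turn higher in the fibrogenic gate, with 46.6 against 30.6, a ratio of 0.61 (0.50 to 0.72). Over all peaks of the library, not only those in shared regions, 0 loci were past 1.5-fold higher in the fibrogenic gate, beside 0.465% of all genes. Of all genes, 3.56% were higher and 3.21% lower in the chondrogenic gate, and 0.427% and 1.73% in the fibrogenic gate. Wnt9b was lower in the fibrogenic gate (4.97 against 7.99 CPM) and the tenogenic gate (5.23 against 7.97 CPM), at ratios of -0.69 and -0.61, beside 0.71% higher and 0.83% lower of all genes in the tenogenic gate, from 82 and 89 fragments in the gates. At E14.5 no locus passed 1.5-fold in these 4 gates, and the values ran from -0.34 to 0.51. The gates also separated their own panels less at that stage: genes left out of the score had a median log2 ratio of 0.61 in the chondrogenic gate (2.26 at E16.5), 0.27 in the dermal fibrogenic (0.35), 0.19 in the fibrogenic (0.50) and 0.17 in the tenogenic gate (0.39). They were higher in 9 of 9, 7 of 7, 7 of 8 and 6 of 7 cases. Of all genes, 1.05% were higher and 1.25% lower there in the chondrogenic gate, 0.278% and 0.334% in the tenogenic, 0.303% and 0.46% in the fibrogenic and 0.524% and 0.46% in the dermal fibrogenic gate.

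**Figure D4:**
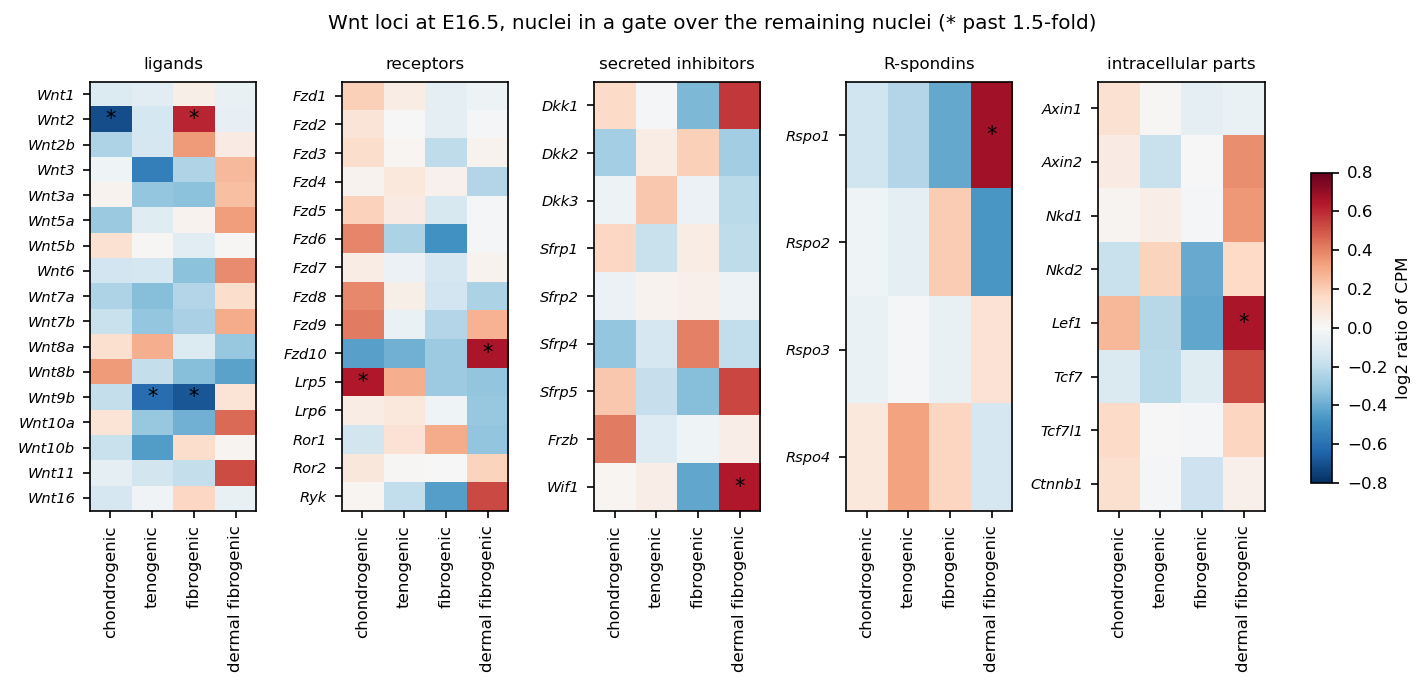
Log2 ratio of CPM at E16.5, nuclei of a gate over the remaining nuclei, for the 53 loci (rows, by role) and 4 gates (columns), with stars past 1.5-fold. Fzd10, Wif1, Rspo1 and Lef1 are starred in the dermal fibrogenic column, and Wnt2 goes from -0.71 in the chondrogenic to 0.61 in the fibrogenic column.

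Single peaks separated the gates further than whole loci did, at the Wnt loci as over all peaks and genes. In the chondrogenic gate at E16.5, 13 of the 125 peaks were more than 1.5-fold higher and 19 lower, where 10.7% and 20.5% of all matched peaks were. The Lef1 intron peak given above had 7.67 CPM in the gate and 0.49 in the remaining nuclei, a log2 ratio of 3.98 (3.59 to 4.38) from 145 and 88 fragments. The Ror2 intron peak had 7.20 and 0.92, a ratio of 2.98 (2.63 to 3.32). Over the whole library both were among the weaker peaks, at 1.22 and 1.56 CPM. A pair of Tcf7l1 peaks had 21.7 against 5.96 CPM (1.86) and 59.4 against 17.1 CPM (1.80), and another Ror2 peak 7.29 against 2.47 (1.56). The whole loci of Lef1, Ror2 and Tcf7l1 stayed within 1.5-fold in this gate.

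The same Lef1 peak was not past 1.5-fold higher in the other gates, with log2 ratios of 0.20 (-0.45 to 0.79) in the tenogenic, -0.65 (-1.51 to 0.10) in the dermal fibrogenic and -1.97 (-3.30 to -0.90) in the fibrogenic gate. At E14.5 it had 3.67 CPM in the chondrogenic gate and 1.98 in the remaining nuclei, a ratio of 0.89 (0.39 to 1.36). In the E14.5 library, which had no part in choosing which peaks passed the fold, 30 of the 32 peaks past 1.5-fold in the chondrogenic gate at E16.5 had a ratio of the same sign, beside 92.7% of all matched peaks past the fold there. Of the 93 peaks within 1.5-fold, 60 did, beside 65.8%. Of the 32, 11 were past 1.5-fold at both stages, beside 41.6%, and in the dermal fibrogenic gate 7 of 42 were, beside 16.5%.

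In the dermal fibrogenic gate, 16 of the 125 peaks were higher and 26 lower, where 8.84% and 20% of all matched peaks were. The higher ones included peaks of Ror2 (32.8 against 11.1 CPM, a ratio of 1.56), Tcf7 (26.2 against 11.02, 1.25), Wnt5a (18.5 against 7.84, 1.24), Wnt11 (25.8 against 12.2, 1.08) and Lef1 (23.6 against 12.4, 0.93). The Tcf7 peak was the one that gained counts with stage, and the Lef1 peak was not the one of the chondrogenic gate. A Wif1 exon peak had 3.58 against 1.12, a ratio of 1.68 (1.26 to 2.09), and an intron peak 4.23 against 1.62, a ratio of 1.38. At E14.5, 36 of the 42 peaks past 1.5-fold had the same sign, beside 85.8% of all matched peaks, as had 58 of the 83 others, beside 60.9%. In the fibrogenic gate 6 peaks were higher and 15 lower, beside 3.3% and 11.9%, and in the tenogenic gate 6 and 4, beside 6.5% and 4.14%. The fibrogenic peaks had the same sign at E14.5 in 13 of 21, like 66 of the 104 others, with 0 past 1.5-fold at both stages, beside 70.1%, 60.9% and 8.64% of all matched peaks. The tenogenic peaks did in 8 of 10 and 77 of the 115 others, beside 77.1% and 56.2%. The first Dkk3 peak was lower in the fibrogenic gate, with 2.05 against 5.15 CPM, a ratio of -1.32 (-1.86 to -0.84).

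**Figure D5:**
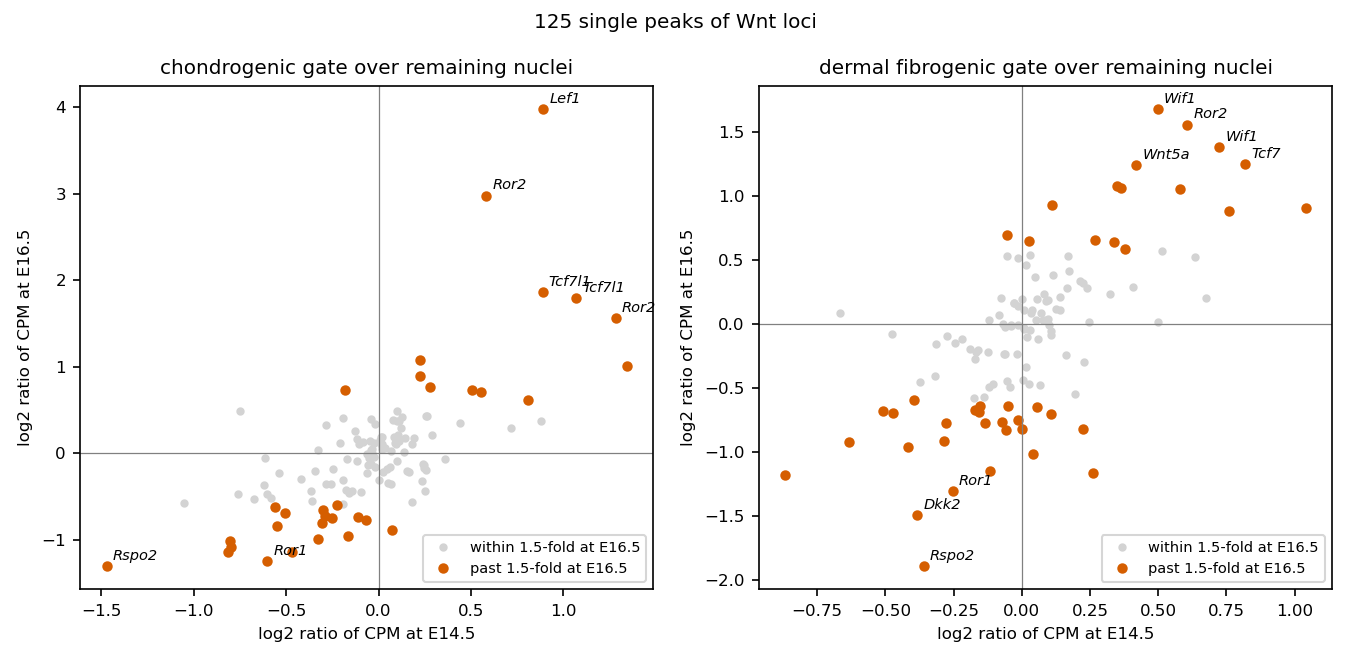
Log2 ratio of CPM, gate over remaining nuclei, for the 125 single peaks at E14.5 (x axis) and E16.5 (y axis), in the chondrogenic (left) and dermal fibrogenic (right) gates, with peaks past 1.5-fold at E16.5 in colour. Lef1 and Ror2 peaks stand highest on the left at 3.98 and 2.98, and most coloured points lie in the quadrants of equal sign.

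The letters CTTTGAT or CTTTGAA, searched on both strands, were found in the central 500 bp of 16.8% of the 125 peaks. Of all E16.5 peaks in shared regions, matched in position or not, 17.1% hold them. They were in 5 of the 25 peaks that were higher at E16.5 and 4 of the 22 that were lower, beside 19.7% and 16.9% of all such matched peaks. Of the 78 within 1.5-fold 12 held them, beside 13.8% of all matched peaks within it. In RefSeq promoter windows (GRCm38, 250 bp before to 50 bp after a start), 37 of the 53 loci were matched by symbol and 3 held them (Dkk1, Wnt5b and Wnt11), that is 6.67% of 45 windows against 8.64% of all. These shares describe letters and no binding.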

How the data were processed

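The authors had deposited, per library, raw counts: how many transposase cut sites each nucleus had in each peak. The submitters' processing notes name Cell Ranger ATAC 1.1.0, bcl2fastq and mm10, while the file headers give version 1.2.0 for E16.5 and 1.0.1 for both earlier stages. Each library had its own peak calls, whose covered length differed (156, 81.5 and 193 Mb), so wider or extra peaks add counts. No column was left without a sample.

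Peaks were merged into 266531 regions (overlap of at least 1 bp), of which 84660 had a peak of every library. Counts in these were summed over each gene (GENCODE M21 basic, GRCm38) and the 2000 bp before it, then scaled as CPM to the autosomal total of these regions. No peak lay past a chromosome end of that build. Called means past 1.5-fold. Intervals at 95% are exact Poisson, binomial or conditional binomial on fragment equivalents (cut sites divided by 2, rounded up), cover counting error only, and are too narrow where nuclei differ. Thinning to 1074 fragments was computed as an exact expectation, leaving out 2071, 0 and 252 shallower nuclei. No nuclei were otherwise removed and no doublet caller was run. Statistics were checked on simulated data. Python 3.11.15, numpy 2.4.6 and scipy 1.17.1 were used.

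The 53 loci, marker panels and pathway list name genes by role, without a rule on measured values, but were chosen with earlier results of these data known. Genes given in full were the largest rise and fall of each role, 10 members that the study names for a population or branch (Wnt2, Wnt5a, Wnt6, Fzd2, Dkk3, Rspo1, Rspo3, Axin2, Lef1 and Nkd2), and the largest rise and fall of the other autosomal pathway genes. The single peaks were examined after the data had been seen. With 1 library per stage no test was made.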

Additional observations from a re-analysis of the deposited data

Results flagged for a closer look

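Peaks outside the regions shared by all 3 libraries were not used in the comparisons, and they held signal at the Wnt loci. They took 7.75%, 1.70% and 11.5% of these loci's cut sites in stage order, beside 13.5%, 2.29% and 18.2% over all autosomal peaks. The strongest peak called at E12.5 alone lay in Lef1 (chr3:131171015-131172278), with 6.02 per 1000000 cut sites in all autosomal peaks of that library, from 515 cut sites. The strongest called at E16.5 alone lay in Wif1 (chr10:121098043-121098841), with 4.97 on the same scale, from 2017 cut sites. A locus not called in a library has no count there, so neither gives a ratio.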

How the results depend on the processing

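No library can be left out and no stage has a second one, so the values below differ by processing alone. No paired analysis was possible because each group held 1 sample. Across E16.5 over E12.5, the 2 higher loci became 0 per kilobase of called width, 1 in promoter peaks, 1 in a binarised matrix and 0 past 2-fold. Against the 6 lower loci there were 0, 3, 3 and 0 under the same settings and 3 with 10000 bp upstream. Per kilobase of called width 3.62% of all genes were higher and 5.33% lower. The 3 in promoter peaks were Wnt10a (-1.10), Sfrp2 (-0.93) and Sfrp5 (-0.66), of which only Sfrp5 was among the 6. For E14.5 over E12.5, 0 loci were higher and 1 lower. There were 2 past 1.5-fold per kilobase (2 higher, 0 lower), with 10000 bp upstream (1 and 1) or with median-ratio scaling (0 and 2), 3 in peaks of matched position (3 and 0) or without the deepest 5% of nuclei (2 and 1), 4 in promoter peaks (2 and 2) and 6 over all own peaks (4 and 2). Its median of 0.05 became 0.18 in promoter peaks, 0.19 in matched peaks and -0.11 with median-ratio scaling. For E16.5 over E14.5, 2 loci were higher and 3 lower, 5 in all. There were 8 in promoter peaks (2 higher, 6 lower) or over all own peaks (1 and 7), 3 per kilobase (0 and 3), binarised (1 and 2) or with median-ratio scaling (3 and 0), 2 with 10000 bp upstream (2 and 0) and 0 past 2-fold. The 3 lower per kilobase were not the same 3 loci as before, since Fzd3 and Sfrp5 were not among them. Its median of -0.15 became -0.10 per kilobase, -0.32 in promoter peaks, -0.27 in matched peaks, -0.29 over all own peaks and 0.020 with median-ratio scaling. All genes moved as well: for E16.5 over E14.5, 5.11% were higher and 8.86% lower in promoter peaks (median -0.28), 8.45% and 17.6% over all own peaks (-0.31), 3.05% and 3.12% per kilobase (0.03) and 10.6% and 1.96% with median-ratio scaling. For E14.5 over E12.5 the shares were 10.8% and 5.19% in promoter peaks (0.26), 15.9% and 8.84% over all own peaks (0.26) and 8.61% and 3.76% in matched peaks (0.21). Where no share of all genes is given for a setting and step, the count of loci there describes processing only and is not read against all genes. In the gates at E16.5, the top 5% of nuclei in place of 10% gave 4 loci for the chondrogenic (1 higher, 3 lower, beside 4.95% and 5.34% of all genes), 2 for the tenogenic (0 and 2, beside 1.02% and 1.67%), 4 for the fibrogenic (1 and 3, beside 0.685% and 2.32%) and 9 for the dermal fibrogenic gate (8 and 1, beside 2.68% and 4.82%), against 2, 1, 2 and 4 before. Promoter peaks gave 1 for the chondrogenic gate (0 higher, 1 lower, beside 3.03% and 2.12% of all genes) and 2 for the tenogenic (0 and 2, beside 0.339% and 0.969%). For the tenogenic gate all own peaks gave 2 (0 and 2, beside 0.553% and 0.735%) and no depth strata 0, beside 0.911% and 1.21%. Single peaks outside promoters past 2-fold were 14 higher and 12 lower of 85, beside 11.2% and 15.4% of all. The median promoter share without thinning was 11.7%, 17.6% and 29.9%. From E12.5 to E16.5, promoter peaks alone turned the direction of, among others, Wnt2 (0.29), Wnt10a (-1.10) and Lrp5 (-0.43). Direction also turned for Wnt8b at E14.5 over E12.5 (0.44 per kilobase), for Wnt10a at E16.5 over E14.5 (-0.12 per kilobase, -0.23 in matched peaks), for a Lef1 peak at chr3:131196027-131196871 (0.028 per kilobase, against -1.01) and for a Ror2 peak in the fibrogenic gate without depth strata (-0.21). Per kilobase values change with the called width of the locus and of the whole library by construction, and for the other settings the cause was not tested. Each single value past 1.5-fold in the main setting was compared with each of its alternative settings, so a value can enter several times. The yardstick was the mean distance from the value to the ends of its counting interval. Of the remaining comparisons, 403 moved by no more than that and 135 by more, without a change of direction. Values within 1.5-fold are not in this tally, and some of them turned, such as Sfrp4 per kilobase of called width. The alternatives for single peaks were chosen after seeing the data.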
